A study of Mus musculus with 4 samples.

Results

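Cluster 7 is the smaller of the 2 groups of dividing microglia that the authors' finer clustering separated in mouse brain, and it holds the cells highest in the genes of late cell division. Its members are the cells that carry the number 7 in the deposited finer clustering, which has 9 clusters. They are 2990 of 74758 cells, or 4.00%. The other dividing cluster, cluster 4, holds 8129 cells, and the 63639 cells outside both are called non-cycling here by cluster alone. Of the members, 2977 (99.6%) also lie in the single cycling cluster of the authors' coarser clustering, which holds 10502 cells.

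The cells came from 20 mice, 4 in each of 5 groups, all with TfRmu/hu, an allele that carries the human apical domain of the transferrin receptor (TfR). Of the WT;TfRmu/hu mice (WT below), 4 received ATV:4D9 and 4 received ATV:ISO. The AppSAA;TfRmu/hu mice (AppSAA below), whose App gene carries knock-in mutations that cause amyloid pathology, received ATV:4D9, the antibody 4D9 alone, or ATV:ISO. The antibody 4D9 activates TREM2, a lipid receptor of microglia. ATV:4D9 joins it to a TfR-binding transport vehicle, and ATV:ISO is the isotype control on the same vehicle. Each mouse received a single intravenous dose of 10 mg/kg and was sampled after 24 h. The deposited annotation calls the isotype arm ATV-DNP02, and the reading of that name as ATV:ISO is stated in no deposited text. The reporting summary gives 8 months and male sex for the AppSAA;TfRmu/hu mice and 2 to 8 months and mixed sex for WT;TfRmu/hu mice. The latter entry may cover other mice than these, and if these WT mice differed in age from the AppSAA mice, genotype and age cannot be told apart. The annotation records female sex for 1 mouse, in the ATV:ISO arm of WT, and male sex for the others. Sorted CD11b+ brain cells of 1 mouse per group were tagged and loaded together in each of 4 pools.

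Microglia, the macrophages of the brain, renew themselves by dividing in place, and in the healthy adult brain few divide at any time. A dividing cell first copies its DNA in S phase, using helicases of the MCM family, polymerases and enzymes that supply nucleotides. It then enters G2 and mitosis, when cyclin B with CDK1, Aurora and Polo-like kinases, kinesin motors and the centromere proteins build the spindle and part the chromosomes. Late mitotic messages are switched on after those of S phase, through a different set of promoter elements, and are removed after division.

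Between 2193 and 6126 cells per mouse were deposited, with 17150296 to 102446549 UMIs (unique molecular identifiers, each 1 captured transcript). Over all groups together, cluster 7 cells held more UMIs than the others, with a median of 20397 against 17335 in cluster 4 and 10269 in non-cycling cells. Of them 32.0% exceeded 25000 UMIs against 7.18% of non-cycling cells. Within mice given ATV:4D9 the median in cluster 7 was 1.11 to 1.19 times that in cluster 4. In AppSAA mice, with few cluster 4 cells, it was 0.825 to 1.19 times with ATV:ISO and 0.608 to 1.11 times with 4D9. Whether cells captured together add to the UMIs of cluster 7 was not tested. No doublet caller was run, and all deposited cells were kept. Of the cell barcodes, 540 occurred in 2 pools and 3 in 3 pools, and 46 cluster 7 cells carried such a barcode. Levels are given in CPM, the usual scaling of a gene's UMIs to a fixed total in each sum of cells.

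The 3 markers given for the cluster were each detected in most of its cells. Mki67 encodes the Ki-67 protein that coats mitotic chromosomes and lies on chromosome 7 of GRCm38 from 135689784 to 135716361. It had a UMI in 98.2% of cluster 7 cells, 63.9% of cluster 4 cells and 4.17% of non-cycling cells. Birc5, on chromosome 11 from 117849251 to 117855743, encodes survivin of the chromosomal passenger complex and was detected in 97.4%, 45.2% and 3.75%. Cenpe, a centromere-bound kinesin on chromosome 3 from 135212537 to 135273611, was detected in 77.0%, 23.2% and 3.27%. After each cell was thinned to 5000 UMIs, which left out 1.20% of cluster 7 cells, the shares in the same order were 87.7%, 39.1% and 1.86% for Mki67, 75.6%, 19.5% and 1.61% for Birc5, and 41.6%, 8.09% and 1.32% for Cenpe. In finer cluster 0 of WT mice given ATV:ISO, a population with few dividing cells, Mki67 had a UMI in 1.60% of cells at a median of 7029 UMIs. The part of free RNA in these shares was not tested.

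Microglial markers were present, with 747 CPM of the homeostatic receptor gene P2ry12 over all cluster 7 cells. Summed over 10 microglial markers, the 16 mice with at least 20 cluster 7 cells ranged from 28453 to 37929 CPM in cluster 7 and from 38443 to 44762 CPM in their non-cycling cells. The 5 border macrophage markers ranged from 9.35 to 234 CPM in cluster 7 against 9.48 to 26.5 CPM in non-cycling cells, 5 neutrophil markers from 4.26 to 81.1 against 4.06 to 21.8 CPM with Mpo at 0, and 4 monocyte markers from 2.52 to 14.1 against 3.75 to 14.8 CPM. The 5 T and NK cell markers summed to 0 to 2.33 CPM (Gzmb at 0), and the 4 B cell markers to 10.7 to 30.5 CPM in cluster 7 (Ms4a1 at 0) against 14.4 to 25.1 CPM in non-cycling cells. Erythroid markers lay between 0 and 4610 CPM, the upper value from 1 mouse in which 2 cluster 7 cells held more erythroid than microglial UMIs. The part of these transcripts in the results was not tested.

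The promoters of the mitotic genes named here are shown because 2 short elements recur in them. The CHR (TTTGAA or TTCGAA) is read by the MuvB complexes that switch genes of G2 and mitosis on and off, and the CCAAT box (CCAAT) is read by NF-Y. Stretches of 5 promoters follow, 5′ to 3′ on the strand of the gene, from the RefSeq promoter table of GRCm38.p6, with each CHR and CCAAT box in either orientation in capitals. They lie at chr7:135716430-135716569 (minus strand) for Mki67, chr2:164769809-164769918 (plus) for Ube2c, chr9:70421535-70421674 (minus) for Ccnb2, chr11:40733418-40733557 (minus) for Hmmr and chr7:80294331-80294470 (plus) for Prc1.
Mki67: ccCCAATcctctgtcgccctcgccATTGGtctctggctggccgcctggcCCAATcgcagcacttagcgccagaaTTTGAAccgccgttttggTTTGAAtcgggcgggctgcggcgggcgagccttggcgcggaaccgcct
Ube2c: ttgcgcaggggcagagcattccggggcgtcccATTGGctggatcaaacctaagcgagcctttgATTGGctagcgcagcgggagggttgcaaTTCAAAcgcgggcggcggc
Ccnb2: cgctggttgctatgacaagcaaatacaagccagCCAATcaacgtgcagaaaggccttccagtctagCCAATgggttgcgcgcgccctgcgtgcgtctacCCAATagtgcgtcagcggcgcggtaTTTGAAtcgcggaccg
Hmmr: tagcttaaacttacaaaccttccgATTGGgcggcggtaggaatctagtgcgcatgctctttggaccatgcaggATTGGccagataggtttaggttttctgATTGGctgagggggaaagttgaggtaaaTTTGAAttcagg
Prc1: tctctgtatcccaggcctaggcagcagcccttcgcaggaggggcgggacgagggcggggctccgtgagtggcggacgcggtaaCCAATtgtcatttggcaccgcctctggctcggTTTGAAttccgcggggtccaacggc

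In each of these windows the CHR lies nearest the start of the gene, with 1 to 3 CCAAT boxes before it. The stretches leave out part of each promoter, so this order holds for the stretches alone. The full promoters held 2 CHRs for Ccnb2, 6 CCAAT boxes for Ube2c and 5 for Hmmr. The windows come from promoters of 300 bases (250 before to 50 after the start), which were searched on both strands, overlapping matches included, for the CHR, the CCAAT box and E2F sites (tttggcgc, tttcgcgc, tttcccgc or tttgccgc). Of 32851 promoters of all genes in the table, 19.2% held a CHR, 37.4% a CCAAT box, 7.52% both and 2.26% an E2F site. Among 268 promoters of 229 genes higher in cluster 7 than in cluster 4 by the rule given further on, 42.5% held a CHR, 56.0% a CCAAT box, 29.9% both and 5.60% an E2F site. Among 637 promoters of 524 genes higher than in non-cycling cells, the shares were 32.0%, 52.4%, 19.5% and 12.7%. Among 11992 promoters of all genes tested in that comparison they were 14.3%, 37.9%, 5.95% and 4.10%. The genes were picked by their levels in these cells, and the shares carry no test. Of 14 promoters of the named mitotic genes (13 of 14 genes matched), 10 held both a CHR and a CCAAT box and 0 held an E2F site. Promoters of Cenpe, Birc5, Nusap1 and Mxd3 held no CHR in these windows. A match describes letters and not a bound site.

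Across the mice, cluster 7 was small except where ATV:4D9 had been given. In WT mice given ATV:ISO it held 0.228%, 0.162%, 0.407% and 0.368% of the cells in pools 1 to 4, from only 4 to 11 cells a mouse. In WT mice given ATV:4D9 it held 10.4%, 7.44%, 9.66% and 8.63%. In AppSAA mice the shares were 0.635%, 0.761%, 0.979% and 0.877% with ATV:ISO, 0.764%, 1.25%, 0.878% and 1.47% with 4D9, and 7.19%, 6.97%, 6.80% and 8.12% with ATV:4D9. The 8 mice given ATV:4D9 lay above the 12 others without overlap and supplied 88.7% of the cluster, 48.0% from WT and 40.7% from AppSAA mice. The clusters were drawn on the same genes that differ between groups within cluster 7 (given further on), so a share counts the cells assigned to it and may depend on those genes.

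**Figure D1:**
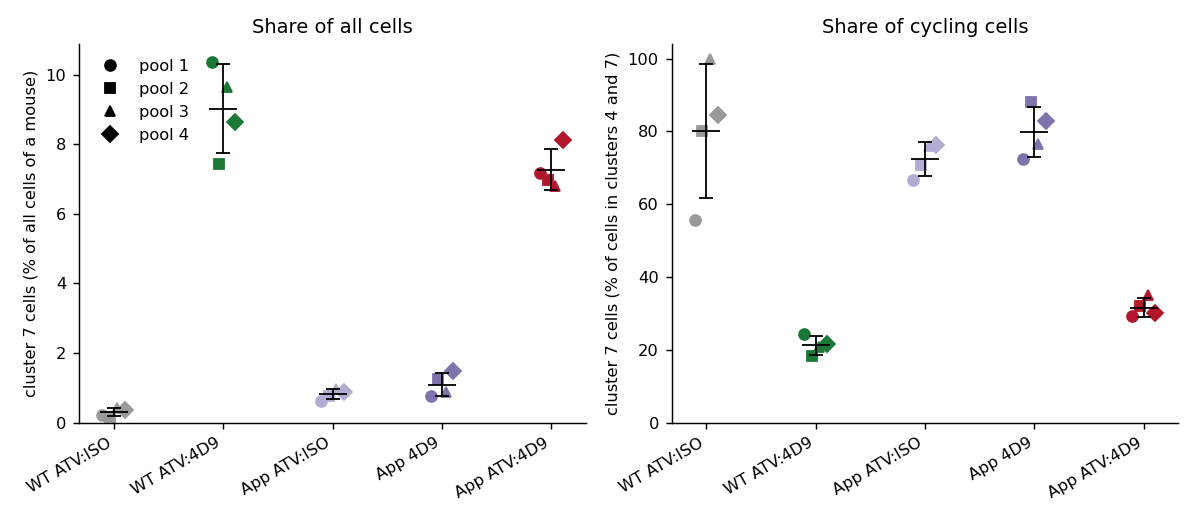
Share of each mouse's cells in cluster 7 (left, percent) and share of its cycling cells, clusters 4 and 7 together, that lie in cluster 7 (right, percent); each point is a mouse, and bars are the mean and SD of 4 mice. Mice given ATV:4D9 sit between 6.80% and 10.4% on the left and between 18.2% and 35.0% on the right.

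In WT mice the mean share was 9.03% ± 1.27 under ATV:4D9 against 0.291% ± 0.115 under ATV:ISO (SD, n = 4), a difference of 8.74 percentage points (p = 0.0286 by a two-sided exact permutation test, the lowest value that groups of 4 allow, and 0.0429 after adjustment over 6 comparisons). In AppSAA mice it was 7.27% ± 0.591 under ATV:4D9, against 1.09% ± 0.327 under 4D9 alone and 0.813% ± 0.149 under ATV:ISO. ATV:4D9 exceeded ATV:ISO by 6.45 and 4D9 by 6.18 points (adjusted p = 0.0429 for both by exact permutation), in 4 of 4 pools. The difference between 4D9 and ATV:ISO, 0.278 points and higher in 3 of 4 pools, did not pass (exact permutation test, p = 0.171). Without ATV:4D9 the genotypes also differed. AppSAA mice given ATV:ISO exceeded WT mice given ATV:ISO by 0.522 percentage points, without overlap (exact permutation test, adjusted p = 0.0429). All permutation tests of shares took the mice as separate, though each pool held 1 mouse of every group. With 4 pairs, a permutation test that keeps this pairing cannot go under 0.05, and none was run.

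The rise of the share with ATV:4D9 was smaller in AppSAA mice on average. Taken within pools it was 8.74 ± 1.24 points in WT and 6.45 ± 0.606 in AppSAA mice (SD, n = 4 pools). The difference of -2.28 reached the lowest p that groups of 4 allow (exact permutation test, p = 0.0286). That test took the rises of both genotypes as separate groups, though they came from the same 4 pools. A test that keeps this pairing was not run. On the log2 ratio to non-cycling cells the difference was -2.29 (exact permutation test, p = 0.0286), where the larger starting share of AppSAA mice enters. The share under ATV:4D9 itself was lower by 1.76 points in AppSAA mice and lower in 4 of 4 pools, but the groups overlapped (exact permutation test, p = 0.0571, adjusted p = 0.0686). It was called on the log2 ratio (-0.72) and with cells of 1000 to 25000 UMIs only (-2.15 points). Both settings change the cells counted. The log2 ratio leaves out cluster 4, which averaged 33.5% of the cells in WT and 16.0% in AppSAA mice given ATV:4D9. The UMI window leaves out the 32.0% of cluster 7 cells over 25000 UMIs. The part of these changes in the calls was not tested.

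The balance between both dividing clusters moved the other way. Of the cycling cells, 21.2% ± 2.54 lay in cluster 7 in WT mice given ATV:4D9 and 80.0% ± 18.4 in those given ATV:ISO (SD, n = 4), the latter resting on few cells a mouse. In AppSAA mice the share was 31.5% ± 2.60 under ATV:4D9, against 79.9% ± 6.85 under 4D9 alone and 72.4% ± 4.57 under ATV:ISO. Mice given ATV:4D9 lay below the others without overlap, with differences of -58.8, -48.4 and -40.8 points from WT ATV:ISO, AppSAA 4D9 and AppSAA ATV:ISO (exact permutation tests, adjusted p = 0.0429 each). Under ATV:4D9 the share was 10.3 points higher in AppSAA than in WT mice, in 4 of 4 pools (exact permutation test, adjusted p = 0.0429). The change with ATV:4D9 within pools differed between genotypes by 18.0 points, which did not pass (exact permutation test, p = 0.143). With 4D9 it exceeded ATV:ISO by 7.56 points, which did not pass (exact permutation test, adjusted p = 0.137).

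Against the non-cycling cells of the same mice, cluster 7 was higher in most genes of the mitotic lists, several log2 units above the baseline, and lower in few genes. The comparison used UMIs summed over 20 or more cluster 7 cells in 16 mice, none of them WT mice given ATV:ISO, and it is a description with no test because the cells were clustered on these genes. A gene counts as higher or lower where the edgeR log2 fold change exceeds 2-fold and every mouse lies on the same side. By this rule 691 of 12197 genes (5.67%) were higher and 94 (0.771%) lower. Mki67 had 719 CPM in cluster 7 and 6.15 CPM in non-cycling cells on average, a log2 fold change of 7.05 (standard error 0.35). For Cenpe it was 5.44 (standard error 0.32) and for Birc5 6.51 (standard error 0.29). Among the largest were those of the spindle pole protein Aspm (8.35, standard error 0.24, 85.3 against 0.219 CPM), the spindle protein Hmmr (7.83), the midzone bundler Prc1 (7.46), the spindle protein Nusap1 (7.45), the ubiquitin-conjugating enzyme Ube2c of the anaphase-promoting complex (7.33), the mitotic cyclin Ccnb2 (7.26), Pimreg (7.22) and the Polo-like kinase Plk1 (7.09).

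The lists of genes by role show how far this went. Of 13 mitotic kinases and phosphatases 13 were higher, with a median log2 fold change of 4.74, among them Nek2 (6.63) and Pbk (6.62). All 6 mitotic cyclins and their CDK subunits (median 5.94), all 4 members of the chromosomal passenger complex (5.36), all 12 mitotic kinesins (5.82), all 8 cytokinesis genes (5.02) and all 6 spindle checkpoint genes (3.85) were higher. So were 35 of 37 centromere and kinetochore genes (median 3.64), 18 of 20 spindle and centrosome genes (4.86) and 13 of 16 genes of condensin, cohesin and the chromosome scaffold (3.08). Fewer of the nuclear envelope genes were, 4 of 7 with a median of 2.15. The exceptions among kinetochore genes were Zwint (0.74) and Cenpo, which had 1.07 without every mouse on 1 side. Over all genes tested the median was -0.04. The anaphase-promoting complex differed within itself, since 7 of 21 members were higher, led by Ube2c (7.33), Cdc20 (5.33) and its inhibitor Fbxo5 (4.77), while the list had a median of 0.59.

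**Figure D2:**
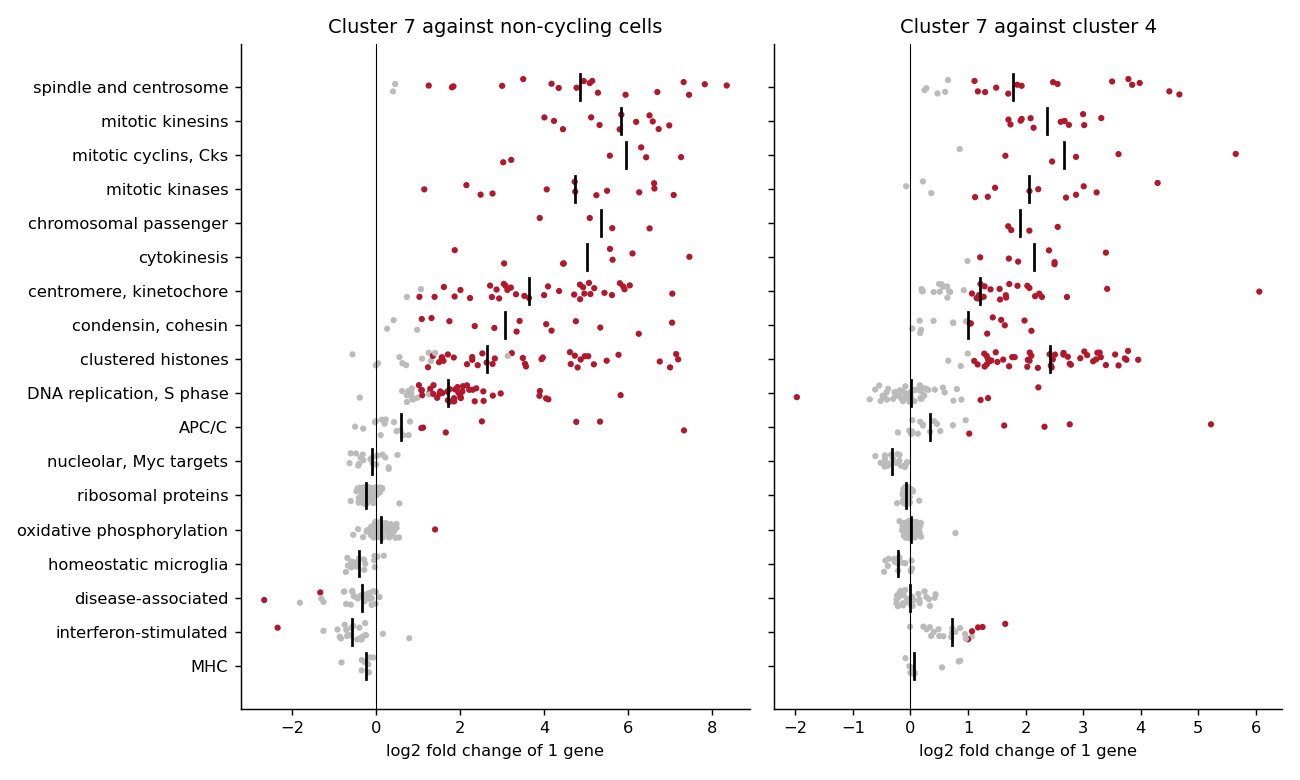
Log2 fold change of each gene of the named lists in cluster 7 against non-cycling cells of the same mice and against cluster 4; each point is a gene, coloured where it passed the rule, and bars are list medians. Apart from the anaphase-promoting complex, the mitotic lists drawn have medians of 3.08 to 5.94 against non-cycling cells, while DNA replication has 1.71 there and 0.01 against cluster 4.

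Genes of S phase were also higher, but less so. Of 53 DNA replication genes 40 were higher (median 1.71), led by Rrm2 of ribonucleotide reductase (5.82) and cyclin E1, Ccne1 (4.10). The other 13 members did not pass the rule, among them the helicase subunits Mcm2 (0.74) and Mcm3 (0.84), and the uracil glycosylase Ung had -0.38. The clustered histone genes, whose near-identical copies may share reads and whose transcripts mostly lack a poly(A) tail, were higher for 36 of 47 tested genes (median 2.64, Hist1h3c 7.15). Of 14 variant histones and high-mobility-group genes 13 were higher (1.91), with H2afx at 4.46. The repressors E2f7 (5.52) and E2f8 (5.29) and the mitotic activator Foxm1 (5.27) stood among 10 of 20 E2F and DREAM genes. Of 6 G1 cyclins and CDKs only Cdk2 was higher (1.29), and Ccnd1 had -0.43. Of 17 CDK inhibitors and p53 targets 5 were higher, namely Cdkn3 (6.18), Cdkn2c (4.10), Cdkn2d (3.49), Cdkn2a (3.10) and Cdkn1a (2.40).

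Outside the cell cycle, few listed genes differed from non-cycling cells by this rule. The genes of the disease-associated microglia (DAM) list that were lower were Gpnmb, a lysosomal glycoprotein, with -2.66 (standard error 0.35, 15.6 against 69.5 CPM), and Apoe, the lipid carrier, with -1.32 (standard error 0.17, 2518 against 6553 CPM). That of Apoe turned to 0.62 with finer cluster 1 of the same mice as the baseline. The DAM list of 30 genes had a median of -0.34, the 17 homeostatic genes a median of -0.40 with 0 passing, and the 22 interferon-stimulated genes a median of -0.56 with only Slfn5 lower (-2.34). The direction of the summed interferon list depended on the group. In AppSAA mice it averaged 2254 CPM in cluster 7 against 1174 CPM in non-cycling cells with ATV:ISO, and 1743 against 1067 CPM with 4D9. With ATV:4D9 it averaged 1609 against 2703 CPM in WT and 3898 against 6175 CPM in AppSAA mice. A gene that changes side between groups cannot pass the rule. Other lower genes of at least 10 CPM included the histone demethylase Kdm5b (-2.14), the fatty acid binding protein Fabp3 (-1.999), Fblim1 (-1.39), the sugar phosphate transporter Slc37a2 (-1.38), Crebrf (-1.35) and Asb10 (-1.28). None of 77 ribosomal protein genes and 1 of 79 nuclear genes of oxidative phosphorylation passed. The 5 border macrophage markers had log2 fold changes of 1.24 to 2.23 (median 1.69), with 0 passing the rule in every mouse.

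Set against cluster 4 in the 8 mice given ATV:4D9, where both clusters held enough cells, cluster 7 was higher in several mitotic lists and in part of the others, while the median of the DNA replication list was close to that of all genes. By the same rule 349 of 11522 genes (3.03%) were higher in cluster 7 and 9 (0.0781%) lower. The histone H3 variant of centromeres, Cenpa, led with 94.9 against 1.30 CPM and a log2 fold change of 6.06 (standard error 0.07). Ccnb2 followed with 63.7 against 1.23 CPM (5.65), Ube2c with 167 against 4.35 CPM (5.22), then Mxd3 (4.51), Plk1 (4.30), Prr11 (4.10), Aspm (3.99), Nusap1 (3.85) and Hmmr (3.79). The markers given for the cluster had 2.10 (Mki67), 2.72 (Cenpe) and 2.56 (Birc5), all in 8 of 8 mice. The lists of kinesins (12 of 12 higher, median 2.38), chromosomal passengers (4 of 4, 1.91), mitotic cyclins (5 of 6, 2.67) and cytokinesis genes (7 of 8, 2.14) were higher almost throughout. So were the clustered histones (46 of 49, 2.42), which were set with the S phase genes above. Other lists were higher in part, with 23 of 37 centromere and kinetochore genes (1.21), 15 of 20 spindle and centrosome genes (1.78), 10 of 13 mitotic kinases (2.07), 8 of 16 genes of condensin, cohesin and the chromosome scaffold (1.00), 3 of 6 spindle checkpoint genes (1.07), 5 of 21 genes of the anaphase-promoting complex (0.34) and 0 of 7 nuclear envelope genes (0.71). Of 53 DNA replication genes 3 were higher (Rrm2 2.22, Dbf4 1.35 and Ccne1 1.22) and 1 lower, with a median of 0.01 against -0.01 over all genes. That gene, Ung, which removes uracil from newly copied DNA, was also the only lower gene with a mean of at least 10 CPM, at 25.8 against 101 CPM (-1.98, standard error 0.07).

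Part of the interferon list was higher as well. Of 22 genes 5 were higher in cluster 7 than in cluster 4 (median 0.73), namely Rsad2 (1.65), Ifit1 (1.25), Ifit3 (1.17), Mx1 (1.07) and Ifi27l2a (1.00), which interferon induces. The DAM list (median -0.01) and the homeostatic list (-0.21) had 0 genes past the rule. Of 3 border macrophage markers tested against cluster 4, F13a1 was higher (1.58), and the list had a median of 1.32. Neither of 2 neutrophil genes passed (median 1.39). The 5 border macrophage markers summed to a median of 44.5 CPM in cluster 7 and 13.4 CPM in cluster 4 over 16 mice. Among these, AppSAA mice held only 11 to 19 cluster 4 cells with ATV:ISO and 6 to 11 with 4D9. The part of these cell types was not tested. Cdkn1a, the p53 target that encodes p21, had a log2 fold change of 2.04 (489 against 123 CPM), with Cdkn3 (3.17), Cdkn2d (2.89), Cdkn2c (1.98), Cdkn2a (1.96) and Ccng2 (1.27) also higher among 15 tested.

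Within cluster 7, AppSAA mice given ATV:4D9 were compared with those given ATV:ISO. Cells were assigned to the cluster by their expression. A change of level and a change of which cells were assigned cannot be told apart in this contrast. Most genes of the DNA replication and interferon lists rose, and part of the late mitotic genes and most DAM genes fell. With edgeR's quasi-likelihood test at an adjusted p under 0.05, 1062 of 8647 genes (12.3%) rose and 958 (11.1%) fell. Sums rested on 164 to 461 cells a mouse with ATV:4D9 and on 22 to 60 with ATV:ISO. The median UMIs of cluster 7 cells overlapped, at 19649 to 22568.5 with ATV:4D9 and 17450.5 to 23239 with ATV:ISO. Those of non-cycling cells were higher with ATV:4D9, at 12617 to 14970 against 8419 to 9814. Cluster 7 cells thus held 1.43 to 1.56 times the median UMIs of non-cycling cells with ATV:4D9 and 2.07 to 2.37 times with ATV:ISO. The median percent of mitochondrial UMIs in cluster 7 cells was 1.11%, 1.33%, 1.91% and 2.07% in pools 1 to 4 with ATV:4D9. With ATV:ISO it was 1.56%, 1.44%, 2.21% and 2.41%. The ranges overlapped, but within each pool it was lower with ATV:4D9. Of 13 mitochondrially encoded genes 4 fell and 0 rose (median -0.44), against 0 called in non-cycling cells (0.03), and of 76 ribosomal protein genes 19 fell and 1 rose (-0.17). The part of these differences in the other levels was not tested. With cells of 1000 to 25000 UMIs only, 720 genes rose and 614 fell.

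Of 53 DNA replication genes 51 rose and 0 fell (median 1.09, against -0.02 over all genes). Ccne2, the S phase cyclin E2, had 122, 202, 114 and 142 CPM in pools 1 to 4 with ATV:4D9 and 30.3, 28.2, 62.4 and 20.2 CPM with ATV:ISO. The groups did not overlap, and the log2 fold change was 1.89 (standard error 0.28, edgeR, adjusted p = 4.1e-05). Ccne1 (1.76), the chromatin remodeller Hells (1.57) and the chromatin assembly factor Chaf1b (1.54) rose as well. Of 5 G1 cyclins and CDKs 4 rose, led by Ccnd1 (1.29) and Ccnd3 (1.17), and 9 of 19 E2F and DREAM genes, led by E2f1 (1.78), while Rbl2, the pocket protein p130, fell (-0.84). Of 16 nucleolar and Myc target genes 11 rose (median 0.59), with the spermidine synthase Srm at 1.36.

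**Figure D3:**
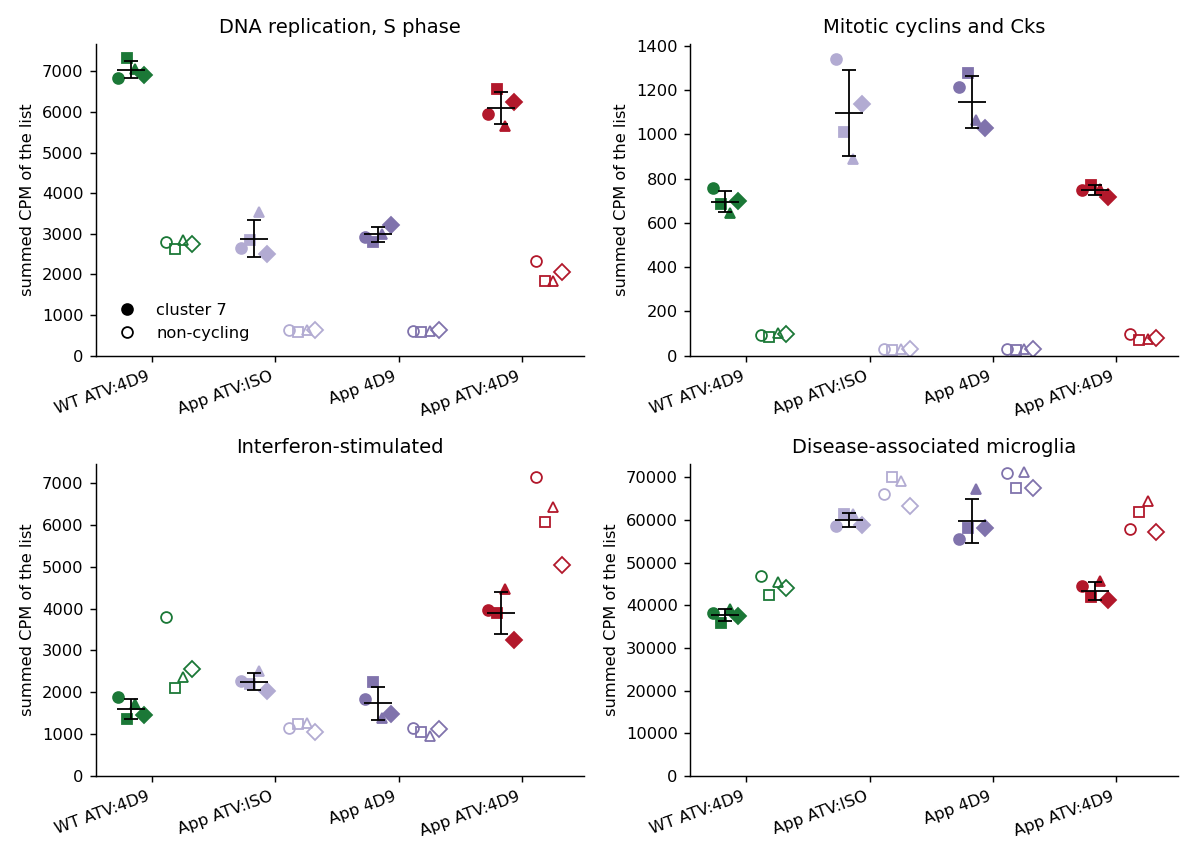
Summed CPM of the genes of 4 lists in each mouse by group, in cluster 7 (filled points, with the mean and SD of 4 mice) and in non-cycling cells (open points); point shape marks the pool. In cluster 7 the DNA replication sum lies between 5651 and 7333 CPM in mice given ATV:4D9 and between 2505 and 3529 CPM in the others with enough cells.

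Part of the late mitotic genes fell in the same comparison. Ccnb2 had 67.8, 73.2, 74.6 and 68.2 CPM with ATV:4D9 and 233, 257, 162 and 259 CPM with ATV:ISO in AppSAA mice. Every ATV:4D9 mouse lay below every ATV:ISO mouse (-1.72, standard error 0.14, edgeR, adjusted p = 8.1e-08). Cenpa had 96.2, 109, 132 and 109.6 CPM against 513, 339, 269 and 365 CPM, again without overlap (-1.76, standard error 0.17, edgeR, adjusted p = 3.8e-07). Ccnb1, the partner of CDK1 at mitotic entry, fell by 1.04 on the log2 scale, the kinetochore protein Cenpf by 1.15, Aspm by 1.49 and Ube2c by 1.64. Of the lists, 7 of 12 kinesins fell (median -0.52), 10 of 20 spindle and centrosome genes (-0.42, 2 rose) and 4 of 8 cytokinesis genes (-0.50). So did 3 of 6 mitotic cyclins (-0.36) and 5 of 13 mitotic kinases (2 rose). Of 36 clustered histones, set with the S phase genes above, 9 fell and 0 rose (-0.50). Other mitotic lists were mixed. Of 37 centromere and kinetochore genes 6 rose and 4 fell (median -0.09), of 16 genes of condensin, cohesin and the chromosome scaffold 3 rose and 3 fell (0.02), of 7 nuclear envelope genes 2 rose and 0 fell (0.15), of 21 genes of the anaphase-promoting complex 1 rose and 4 fell (-0.19), and of 6 spindle checkpoint genes 0 rose and 1 fell (-0.13).

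The markers of the cluster fell too, by less than Ccnb2, Cenpa, Ccnb1, Cenpf, Aspm and Ube2c. Mki67 had 459, 683, 718 and 614 CPM with ATV:4D9 and 894, 816, 800.5 and 711 CPM with ATV:ISO, where the highest ATV:4D9 mouse lay above the lowest ATV:ISO mouse (-0.43, standard error 0.14, edgeR, adjusted p = 0.030). Cenpe had 111, 134, 142 and 135 CPM against 271, 191, 199.96 and 265 CPM without overlap (-0.87, standard error 0.14, edgeR, adjusted p = 1.5e-04). Birc5 had 323, 322, 317 and 299 CPM against 576, 494, 305 and 432 CPM, and the pool 3 ATV:ISO mouse lay inside the ATV:4D9 range (-0.55, standard error 0.16, edgeR, adjusted p = 0.016). Summed over the 6 mitotic cyclin genes, cluster 7 had 718 to 771 CPM with ATV:4D9 and 887 to 1342 CPM with ATV:ISO. In a sum over cells, a lower level in each cell and fewer cells at that stage cannot be told apart.

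**Figure D4:**
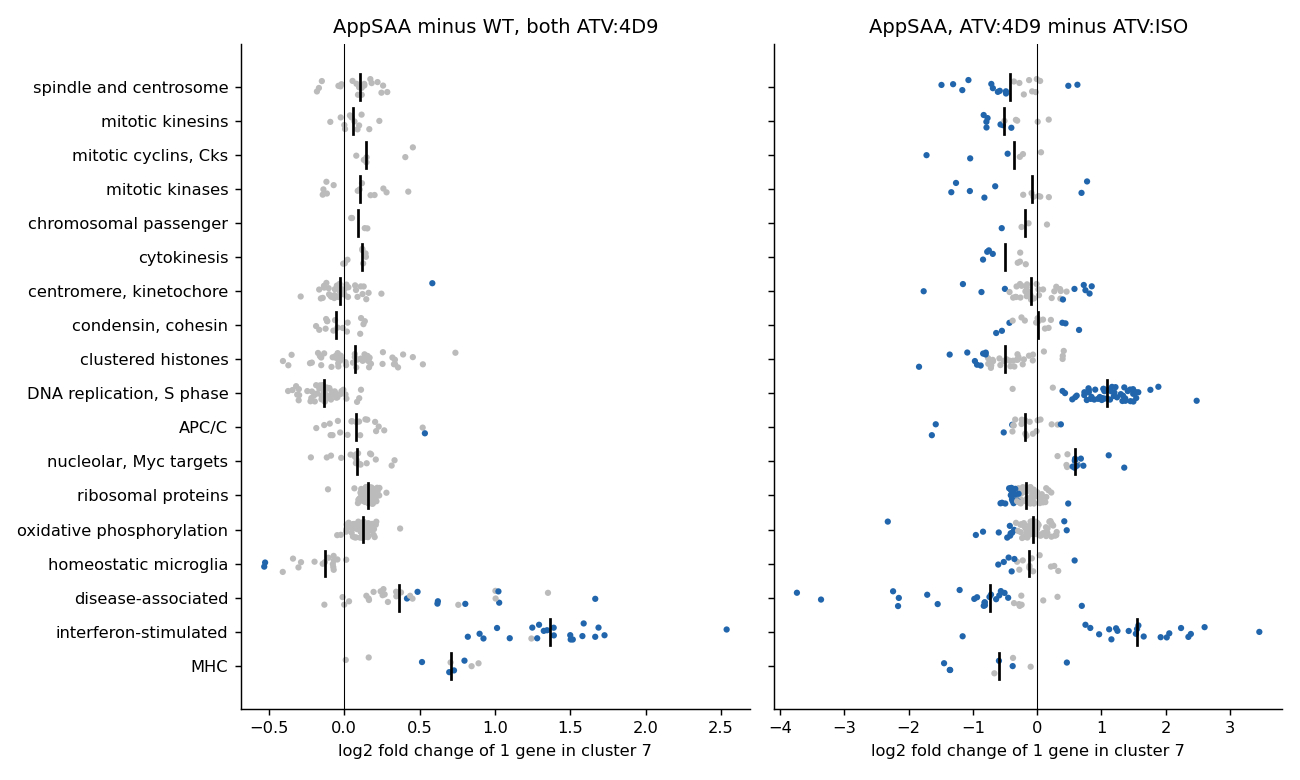
Log2 fold change of each gene of the named lists within cluster 7, for AppSAA against WT mice under ATV:4D9 (left) and for ATV:4D9 against ATV:ISO in AppSAA mice (right), on axes of different range; points are genes, coloured where the adjusted p was under 0.05, and bars are medians. DNA replication has a median of 1.09 for the antibody and -0.13 for the genotype, and interferon genes have 1.55 and 1.37.

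The interferon list had the highest median of the lists in this contrast. Of 21 tested genes 20 rose with ATV:4D9 (median 1.55). Rsad2, which encodes viperin, had 99.3, 55.6, 91.9 and 79.9 CPM with ATV:4D9 and 4.67, 1.57, 12.7 and 4.58 CPM with ATV:ISO, without overlap (3.46, standard error 0.44, edgeR, adjusted p = 9.2e-06). Cxcl10, an interferon-induced chemokine, had 4425, 2787, 3564 and 3429 CPM against 483, 168, 987 and 362 CPM (2.78, standard error 0.40, edgeR, adjusted p = 3.5e-05). The other chemokines among the largest rises were Cxcl13 (4.14), Ccl12 (3.22), Cxcl11 (2.94) and Ccl2 (2.50), beside Ifit3b (3.11), Ifit3 (2.61), the adhesion molecule Vcam1 (2.52) and Tgm2 (2.42). The exception was Ifi27l2a, which had 360.0, 577, 601 and 354 CPM against 1052, 1331, 827 and 864 CPM and fell by 1.16 on the log2 scale (standard error 0.23, edgeR, adjusted p = 8.1e-04).

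Of 29 DAM genes 21 fell and 1, the chemokine Ccl4, rose (0.70), with a median of -0.74. Spp1, osteopontin, had 32.3, 18.4, 73.0 and 45.7 CPM with ATV:4D9 and 709, 521, 825 and 107 CPM with ATV:ISO, without overlap (-3.74, standard error 0.44, edgeR, adjusted p = 3.7e-06). Igf1, a growth factor, had 4.52, 5.85, 19.2 and 8.56 CPM against 149, 78.5, 77.8 and 66.0 CPM (-3.36, standard error 0.35, edgeR, adjusted p = 7.8e-07). Ramp1, which modifies the receptors of calcitonin-type peptides, had 46.2, 73.0, 78.4 and 66.6 CPM against 695, 497, 361 and 480.4 CPM without overlap (-2.99, standard error 0.18, edgeR, adjusted p = 3.9e-10). Fabp5 (-3.22), the VEGF receptor Flt1 (-2.92), Egln3 (-2.86), Cxcl14 (-2.84), Cc2d2a (-2.76), Anxa2 (-2.71) and Baiap2l2 (-2.68) were the other large falls. Of 14 cholesterol genes 6 fell and 0 rose (median -0.51), among them the synthase gene Hmgcs1 (-1.21). Markers of other cell types fell too. Of 3 border macrophage genes tested 2 fell, Pf4 (-1.72, with a mean of 22.3 CPM against 64.7 CPM) and F13a1 (-1.41). Flt1 was the only endothelial marker tested, and Cspg4, the only one tested of oligodendrocyte precursors, fell by 1.44 on the log2 scale. Pdgfra and Olig2 of the same precursor list were at 0 in cluster 7. The 5 border macrophage markers summed to 16.0 to 93.0 CPM with ATV:4D9 and to 42.4 to 234 CPM with ATV:ISO. The part of these cell types in the results was not tested.

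Against 4D9, the antibody without the transport vehicle, ATV:4D9 was compared in the same ATV:4D9 mice, so both contrasts share that arm. With edgeR 966 of 8647 genes (11.2%) were higher and 875 (10.1%) lower. The DNA replication list had 51 genes higher and 1, Dbf4, lower (median 1.01), and the interferon list 20 higher of 21 (2.35). The mitotic cyclins had 4 lower of 6 (-0.50) and the DAM list 22 lower of 29 (-0.83). Of 12 kinesins 3 were lower, and of 20 spindle and centrosome genes 8 were lower and 1 higher. Of 37 centromere and kinetochore genes 3 were higher and 3 lower, and of 6 spindle checkpoint genes 0 were called. Of 76 ribosomal protein genes 17 were lower and 0 higher. The largest rises were Ifit3 (4.26), the lymphocyte activation antigen Cd69 (4.11), Cxcl11 (3.89), Ifit3b (3.75), Ccl7 (3.73) and Ifit1 (3.70), and the largest falls Spn (-3.22), the heme oxygenase Hmox1 (-3.12), Anxa2 (-3.01) and Ramp1 (-3.01). Mki67 differed by -0.45 (edgeR, adjusted p = 0.026), Cenpe by -1.10 and Birc5 by -0.53. With cells of 1000 to 25000 UMIs only, 358 genes were higher and 301 lower. Between 4D9 and ATV:ISO, a contrast added after the data were seen, 0 genes were called by edgeR in either direction (0%), and 0 by limma-voom and by DESeq2. By edgeR 269 of 8647 genes had an unadjusted p under 0.05, fewer than that level gives where no gene differs.

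In non-cycling cells of AppSAA mice the same contrast of ATV:4D9 with ATV:ISO called 3317 of 13502 genes higher and 3339 lower. Finer cluster 1 held 35.8 to 46.2% of these cells with ATV:4D9 and 1.72 to 2.61% with ATV:ISO, and cluster 0 held 1.55 to 6.37% and 29.8 to 33.2%, so the contrast includes a change of cluster membership. In it all 53 DNA replication genes rose (median 2.22), 22 of 22 interferon genes rose (2.75) and 11 of 11 tested kinesins rose (1.27). Mki67 had a log2 fold change of 2.25 in them and -0.43 in cluster 7, and Cenpe of 1.71 and -0.87. Of 6 mitotic cyclins 5 rose in non-cycling cells (median 1.38), while Ccnb2 did not pass (0.53, edgeR, adjusted p = 0.18). Of 30 DAM genes 16 fell and 7 rose in them (-0.37). Whether the effect of the antibody differed between both populations was not tested. The summed DNA replication level of non-cycling cells was 1845 to 2329 CPM with ATV:4D9 and 575 to 637 CPM with ATV:ISO.

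Under ATV:4D9, cluster 7 cells of AppSAA mice were higher in most interferon genes and in 4 of 9 MHC genes, while no list of the cell cycle had more than 1 gene called without a pool block. With edgeR 179 of 11197 genes (1.6%) were higher in AppSAA than in WT mice and 16 (0.143%) lower, and with the pool as a replicate block 625 were higher and 290 lower. None of 53 DNA replication genes (median -0.13), 6 mitotic cyclins (0.15), 12 kinesins (0.06) or 13 mitotic kinases passed, and of 37 centromere and kinetochore genes only Cenpa was higher (0.58, standard error 0.12, edgeR, adjusted p = 0.023). Mki67 had 566, 660, 647 and 698 CPM in WT and 459, 683, 718 and 614 CPM in AppSAA mice, and the groups overlapped (0.02, standard error 0.11, edgeR, adjusted p = 0.97). With the block 9 of the DNA replication genes were lower and 0 higher, and 2 of the 6 mitotic cyclins were higher. A difference that did not pass is not shown to be absent.

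Of 22 interferon-stimulated genes 21 were higher in AppSAA mice (median 1.37), and 22 of 22 with the block. Ifi27l2a had 105, 86.1, 68.1 and 82.6 CPM in WT and 360.0, 577, 601 and 354 CPM in AppSAA mice given ATV:4D9. The groups lay far apart (2.54, standard error 0.18, edgeR, adjusted p = 1.1e-05). Cd69, an early activation antigen, had 16.0, 9.19, 10.2 and 3.96 CPM against 82.3, 42.0, 63.5 and 70.5 CPM (2.79, standard error 0.30, edgeR, adjusted p = 1.1e-04). The nucleic acid sensor Zbp1 (1.69), Ifitm3 (1.67) and Ifit1 (1.59) were the other leading members. Among the largest rises stood Cxcl13 (3.15), Ifi211 (2.06), the class I molecules H2-Q6 (1.89) and H2-Q7 (1.80), the cholesterol hydroxylase Ch25h (1.88), Iigp1 (1.82), Oasl1 (1.80) and the arginine enzyme Ass1 (1.77). Of 9 MHC genes 4 were higher, namely Cd74 (0.80), H2-K1 (0.73), H2-D1 (0.70) and B2m (0.52).

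DAM genes differed less. Of 30 genes 8 were higher in AppSAA mice (median 0.36), and 22 of 30 with the pool block. Axl, a receptor tyrosine kinase for apoptotic cells, had 26.6, 16.9, 21.4 and 20.3 CPM in WT and 56.4, 51.6, 86.8 and 65.9 CPM in AppSAA mice (1.67, standard error 0.17, edgeR, adjusted p = 6e-05). Cst7, cystatin F, was higher by 1.03 and the lectin receptor Clec7a by 1.02. Apoe had 591, 489.9, 1003 and 876 CPM against 841, 837, 2432 and 1529.7 CPM, which overlapped and did not pass (1.00, standard error 0.29, edgeR, adjusted p = 0.15). It was higher in the AppSAA mouse in 4 of 4 pools and passed with the pool block (0.92, standard error 0.08, edgeR, adjusted p = 7e-06). The lower genes included the homeostatic Slc2a5 (-0.53) and Crybb1 (-0.53), 2 of the 17 in that list, with Nrarp (-0.74), the iron exporter Slc40a1 (-0.65), Sox4 (-0.58), Bhlhb9 (-0.56), Ggta1 (-0.50), Cryba4 (-0.47), Rtn4rl1 (-0.40) and Camk2n1 (-0.33). Of 2 neutrophil genes tested S100a9 was lower (-2.15), and Cspg4, the only marker of oligodendrocyte precursors tested, was higher (1.61). Cspg4 was also higher in non-cycling cells (2.32), and Pdgfra and Olig2 of the same precursor list were at 0 in cluster 7. The 5 neutrophil markers summed to 4.26 to 13.8 CPM in AppSAA and to 11.3 to 81.1 CPM in WT mice given ATV:4D9. The part of these cell types in the other differences was not tested.

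**Figure D5:**
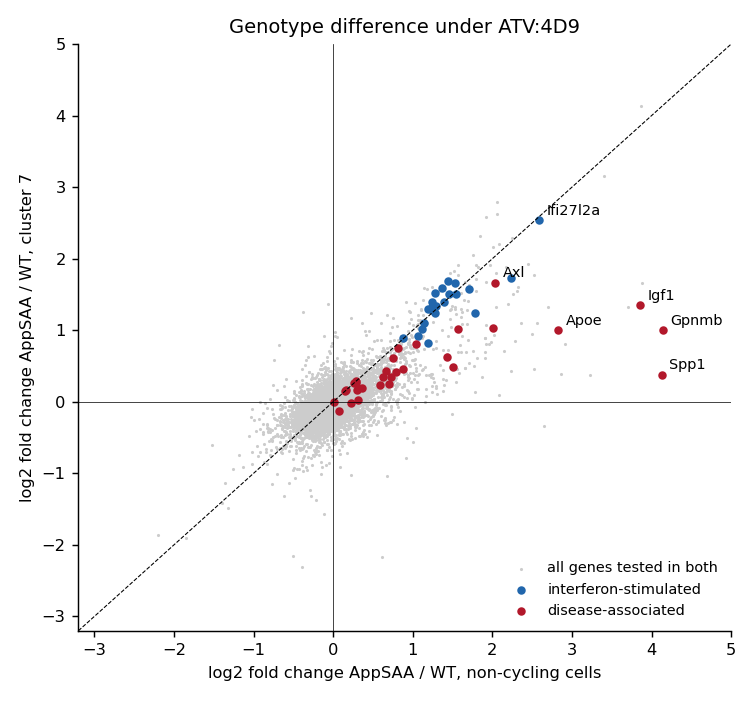
Log2 fold change of AppSAA against WT mice given ATV:4D9 for 11159 genes tested in both populations, in non-cycling cells (horizontal) and in cluster 7 (vertical), with the DAM and interferon genes marked. Interferon genes lie near the diagonal, while Spp1, Gpnmb, Igf1 and Apoe lie below it.

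The genotype difference was then compared between cluster 7 and the non-cycling cells of the same 8 mice in a single fit with the mouse as a block. For most DAM genes the rise in AppSAA mice was smaller in cluster 7, and for interferon genes no difference passed. Cluster 4 was not part of this fit, but its summed DAM level was close to that of cluster 7. The sum averaged 37687 CPM in WT and 43379 CPM in AppSAA mice in cluster 7, and 38577.5 and 44450 CPM in cluster 4. In non-cycling cells it averaged 44690 and 60332 CPM. The non-cycling cells of these groups lay in different finer clusters, since cluster 3 held 9.48 to 15.3% of them in AppSAA and 0.569 to 1.16% in WT mice, cluster 5 held 27.4 to 37.2% and 6.43 to 10.3%, and cluster 1 held 35.8 to 46.2% and 71.3 to 78.6%. A change of cluster membership and a change within clusters cannot be told apart in this comparator. With edgeR 361 of 12651 genes (2.85%) had a lower and 69 (0.545%) a higher difference in cluster 7. Spp1 had 10.7, 15.6, 97.5 and 15.6 CPM in cluster 7 of WT mice and 32.3, 18.4, 73.0 and 45.7 CPM in that of AppSAA mice, and these overlapped. In non-cycling cells it had 24.0, 24.4, 37.6 and 22.7 CPM against 327, 515, 598 and 285 CPM without overlap, and the difference between populations was -3.44 (standard error 0.43, edgeR, adjusted p = 6.9e-05). Apoe had 643, 720.5, 1313 and 1067 CPM against 3567, 6711, 8342 and 5647 CPM in non-cycling cells, and its difference between populations was -1.91 (standard error 0.17, edgeR, adjusted p = 1.5e-06).

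Other large negative differences were those of Gpnmb (-3.05), Igf1 (-2.50), Gm1673 (-2.43), Fabp5 (-2.29), Wfdc17 (-2.07), Gm13889 (-1.57), the sulfotransferase Chst2 (-1.52) and the MHC class II chain H2-Aa (-1.44). By list, 21 of 30 DAM genes (median -0.30), 5 of 9 MHC genes, 5 of 16 cholesterol genes and 46 of 77 ribosomal protein genes had a lower difference in cluster 7, and 0 of 22 interferon genes passed in either direction (median -0.01). The difference was higher in cluster 7 for 5 of 10 genes of tubulins and stathmin (median 0.23), 3 of 19 immediate early genes (0.09) and 3 of 53 DNA replication genes (0.13). Among CDK inhibitors and p53 targets, Cdkn2a (-0.94) and Cdkn1a (-0.40) had a lower difference. Among genes of at least 10 CPM, the 10 highest positive differences ran from 0.69 for Arl5c to 0.44 for Tnf and included the anaphase activator Cdc20 (0.59), the galectin Lgals1 (0.59) and the transcription factor Klf2 (0.47). The 3 given markers did not pass, with -0.39 (Mki67), -0.13 (Cenpe) and -0.34 (Birc5). Without pools 1 to 4 in turn, 359, 251, 109 and 166 genes had a lower and 114, 43, 34 and 23 a higher difference.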

How the data were processed

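Sorted brain cells of 20 mice were profiled by droplet 3′ single-cell RNA sequencing in 4 tagged pools. Per the labels and methods, the authors ran Cell Ranger 6.1.1 on mm10, integrated the pools and clustered in Seurat, and deposited raw UMI counts with an annotation of mouse, group and cluster. The annotation's percent of mitochondrial UMIs per cell, made by the authors, was summarised as a median per mouse. Groups came from that annotation, since each deposited sample is a pool.

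Counts were summed per mouse and population, keeping sums of at least 20 cells, with TMM scaling. Sums were fitted with edgeR 4.0.16 (R 4.3.3), using filterByExpr, the quasi-likelihood test and Benjamini-Hochberg adjustment at 0.05 over all genes tested. Standard errors are the log2 fold change over the root of its F statistic. Comparisons of clusters had the mouse as a block, and the 3 AppSAA groups shared a fit for treatment. CPM are over all UMIs of a sum. Shares were compared by two-sided exact permutation tests that did not keep the pairing of mice within pools, adjusted over 6 comparisons. The depth of each sum limits genes of low CPM.

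Pools pair the mice by the labels. For each sum, log CPM was taken as the deviation from the mean of its group. These deviations were correlated between mice of different groups. Same-pool pairs had a median correlation of 0.174 (0.0253 to 0.591, 24 pairs, 19 over 0.1), against -0.0920 over 72 pairs of other pools. Such deviations cancel within each group, so the negative value for other pools is partly set by this centring.

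Genes are named by a fixed rule: the 3 given markers, the 10 called genes with the largest and the 10 with the smallest fold change at a mean of at least 10 CPM in each comparison (between groups, without overlap), and the 2 to 4 largest of each list. The cluster, its lists and this rule were chosen with earlier results of these data known. The S100a9, Pf4, Cd74, Ccl4, Rbl2 and Ccnb1 values, and those of members named as exceptions, were chosen after their values were seen. Alternatives were DESeq2 1.42.0, limma-voom (limma 3.58.1), no count filter, other cell minimums, a window of 1000 to 25000 UMIs, the pool as a block and leaving out each pool. For treatment the other tools, the UMI window and the contrast of 4D9 with ATV:ISO, and for the difference of the rises the leaving out of pools, were chosen after seeing the data. The edgeR fits of both cluster comparisons, of genotype and of ATV:4D9 against ATV:ISO were tested on simulated data. The other fits were not. A few genes that the naming rule picked are not reported here.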

Additional observations from a re-analysis of the deposited data

Results flagged for a closer look

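The rise of the share of cluster 7 with ATV:4D9 differed between genotypes by -2.28 percentage points (exact permutation test, p = 0.0286), smaller in AppSAA mice in the means over 4 pools. The test did not keep the pairing of both genotypes within pools.

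The genotype difference of 361 genes was lower and that of 69 genes higher in cluster 7 than in non-cycling cells of the same mice (edgeR, adjusted p under the threshold). Those of largest size and at least 10 CPM were Spp1 (-3.44), Gpnmb (-3.05), Igf1 (-2.50), Gm1673 (-2.43), Fabp5 (-2.29), Wfdc17 (-2.07), Apoe (-1.91), Gm13889 (-1.57), Chst2 (-1.52) and H2-Aa (-1.44) in the negative direction. In the positive direction they were Arl5c (0.69), Cdc20 (0.59), Lgals1 (0.59), Tspan18 (0.54), Bank1 (0.50), Emp3 (0.48), Nbeal2 (0.47), Klf2 (0.47), Mecr (0.46) and Tnf (0.44).

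In 5 of 51 sets of 4 mice, 1 mouse stood apart from the rest by Dixon's test, which chance does in about 1 of 20 sets. Rsad2 in cluster 7 had 27.5 CPM in the pool 3 AppSAA mouse given 4D9, against 0.943 to 3.05 CPM in the other mice of that group. Spp1 had 97.5 CPM in the pool 3 WT mouse given ATV:4D9, against 10.7 to 15.6 CPM. Border macrophage markers summed to 100.0 CPM in the pool 4 AppSAA mouse given 4D9, against 15.4 to 24.4 CPM. Erythroid markers summed to 0.998 CPM in the pool 2 mouse of the same group, which is 1 UMI against 0 in the others, so that any single UMI would stand apart by this test. They summed to 4610 CPM in the pool 3 AppSAA mouse given ATV:4D9, with the others at 0 to 0.177 CPM.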

How the results depend on the processing

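The share of cluster 7 under ATV:4D9 in AppSAA against WT mice came to pass the test with cells of 1000 to 25000 UMIs (-2.15 points) and on the log2 ratio to non-cycling cells (-0.72). The first setting leaves out the deepest cells, and the log2 ratio leaves out cluster 4. Leaving out 1 mouse kept the direction of every called share difference but not the call, since 3 mice against 4 cannot go under p = 0.0571 and 3 against 3 not under 0.1 in an exact permutation test. The ranges then were 8.29 to 9.26 points (WT, ATV:4D9 against ATV:ISO), 6.17 to 6.61 and 5.89 to 6.33 (AppSAA, against ATV:ISO and 4D9) and 0.466 to 0.581 (genotype under ATV:ISO). For the share of cycling cells they were -67.0 to -52.2, -42.7 to -39.6, -50.9 to -45.7 and, for genotype under ATV:4D9, 9.16 to 11.4 points. The difference of the rises was -2.70 to -1.84 on leaving out 1 pool.

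Counts of lower genes moved most. Against non-cycling cells they were 181 without a count filter, 155 with at least 50 cells, 149 with no replicate block and 26 with finer cluster 1 as the baseline, where Apoe reversed to 0.62. Against cluster 4 they were 24 without a filter and 1 with at least 10 cells, with 231 higher in the latter. For genotype they were 25 with DESeq2, 6 with cells of 1000 to 25000 UMIs and 5 to 16 on leaving out 1 mouse, and the pool as a replicate block gave 625 higher and 290 lower. The block moved no total of calls for treatment by over 1.5 times. For treatment the UMI window gave 614 lower against ATV:ISO, and 358 higher and 301 lower against 4D9, where 7293 genes could be tested. For the genotype difference between populations, leaving out 1 pool, a mouse of each genotype, gave 23 to 114 higher and 109 to 359 lower, the lowest lower count without pool 3. Leaving out 1 mouse gave 0 to 1 lower for 4D9 against ATV:ISO. The causes were not tested. Sums of as few as 21 cells limit what could be called with ATV:ISO and 4D9.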

Other observations

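WT mice given ATV:ISO entered no comparison of sums, since they held 29 cluster 7 cells in all. Over these cells Mki67 had a UMI in 27 (93.1%) and 1250.4 CPM, Birc5 in 29, Top2a in 27, Cdk1 in 26, Cenpe in 26 (89.7%) and Ccnb1, the mitotic cyclin B1, in 22 (75.9%). The helicase subunit Mcm5 had a UMI in 19 (65.5%) and Pcna, the sliding clamp of replication, in 25. These values cover 4 mice with 4 to 11 cells each and carry no test.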
